A study of Tribolium castaneum with 2 samples.

Results

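The genes described here are the 157 reference genes of *T*. *castaneum* with a TC identifier on chromosomes ChLG2 to ChLG10 whose reference transcript spans 50000 bases or more from start to end, of 13663 genes with such an identifier on these chromosomes and 17070 genes in the files. They were chosen by span alone, which uses no measured level. RNA came from whole wild type larvae of the last instar, 20 days from oviposition, kept 20 to a bottle with flour and yeast. One library was made after 12 h in a supplied mixture of 2% O2, 18% CO2 and 80% N2, here called hypoxia, and the other after 12 h in normoxia. The labels give both libraries the same text, and which one is the treated library was taken from a legend in the study's supplementary material. Low O2 and high CO2 cannot be told apart in this design, and according to the study treated larvae seemed to stop moving and feeding. With 1 library in each condition no gene was tested, and no difference below was checked in replicates.

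Genes of this size are long because of their introns, which are transcribed with the exons and removed by splicing. RNA polymerase needs more time to reach the end of a long gene, so its mature RNA follows a change in initiation later than that of a short gene. In insects long introns, often the first ones, can hold enhancers and whole genes on the other strand, and many long genes known from *Drosophila* encode regulators of development, proteins of the nervous system or very large muscle proteins. Except for the gene of Dachs, the genes below are given by identifier, because the sources used here pair no name with them.

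The spans ran from 50702 to 330447 bases with a median of 67005, and together they covered 12111246 bases. At least 75000 bases were spanned by 54 of the 157 genes, and at least 100000 by 16. Introns made up a median of 97.6% of the span, against 28.8% in the 13506 shorter genes. The summed exon length had a median of 1578 bases in the long genes and 1002 in the shorter ones. It was a multiple of 3 in 153 of the 157 long genes and is called coding length below, since such gene models hold no UTRs. TC030701 is among the 4 exceptions. Long genes had 2 to 105 exons with a median of 7, and shorter genes a median of 3. So the long genes differed from the others far more in their introns than in their coding parts.

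In 98 of the 157 genes a single intron took at least 50% of the span, and the median length of the longest intron was 40985 bases. It was the first intron in 83 genes, or 52.9%, against 23.2% if every intron of a gene were equally often the longest. In the shorter genes with introns the longest one was the first in 48.4%, against 46.1% by the same count, since many of these genes have few introns. The extreme was TC003852 (ChLG3, 26228992 to 26544329, plus strand), in which 310600 of 315338 bases lay in intron 1. The gene with the largest span, TC013979 (ChLG5, 4288634 to 4619080, plus strand), had a coding length of 1557 bases in 5 exons and an intron 4 of 306712 bases. At the other end, TC030701 (ChLG3, 35759566 to 35834262, plus strand) spanned 74697 bases with 82 exons and a coding length of 54073 bases, and its longest intron had 5447 bases. TC010669 (ChLG9, 11991325 to 12076679, plus strand) had 28 exons and a coding length of 46254 bases. Long genes were thus of different kinds, from a few small exons around a giant intron to genes with very long coding parts. Positions are those of the files, whose genome build is not given in the sources used here.

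Long genes were not spread evenly over the chromosomes. ChLG3 held 57 of the 157, or 36.3%, but 14.6% of the genes considered. Of the genes of ChLG3, 2.85% were long, against 0.857% of the genes of the other 8 chromosomes, where the share ran from 0.531% on ChLG7 to 1.75% on ChLG10. Per Mb up to the last annotated gene, ChLG3 had 1.47 long genes and the others 0.487 to 0.966. Within ChLG3, 19 of the 1277 genes that start in the first 20 Mb were long, and 38 of the 720 genes beyond. The limit of 20 Mb was chosen after the positions were seen. Gene density was also lowest on ChLG3, with 51.5 genes per Mb against 55.2 to 110 on the others, and the median longest intron of its genes with introns was 2043 bases against 399 to 1364.

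Levels are given in FPKM, the fragments of a transcript relative to its length in kb and to all mapped fragments of the library. The authors obtained these with Cufflinks, run on each library by itself with the reference transcripts as a guide. A gene was given the sum of the FPKM of its reference transcript and of every assembled transcript that shares most of its exonic bases with that gene on the same strand. Of the 157 long genes, 96 had a mean of at least 1 FPKM over both libraries, or 61.1% (exact 95% binomial interval 53.1 to 68.8%, which treats genes as independent draws). Of the 13506 shorter genes 8247 did, again 61.1%. In both libraries 40 long genes were listed at 0, or 25.5%, and 26.8% of the shorter genes. A listed 0 can be a failed estimate. The remaining 21 long genes had a mean above 0 and under 1 FPKM. Above 1 FPKM the median level was 16.6 FPKM in long genes and 18.6 FPKM in shorter ones. By summed FPKM the share of genes with RNA and their level were therefore close for long and shorter genes. More assembled transcripts were summed in long genes above 1 FPKM, a mean of 1.59 in normoxia and 1.66 in hypoxia against 0.692 and 0.671. What this adds to their level was not tested. By the reference transcript alone 38 of the 157 long genes passed 1 FPKM, and the number for shorter genes is not given here.

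What went with detection among the long genes was the number of exons. Of the 59 genes with 2 to 5 exons, 18 had a mean of at least 1 FPKM and 34 were listed at 0 in both libraries. Of the 42 with 6 to 10 exons 30 passed, of the 35 with 11 to 20 exons 30 passed, and of the 21 with 21 exons or more 18 passed. The same order was seen by coding length, with 13 of 47 genes above the filter under 1000 bases, 59 of 82 from 1000 bases and under 4000, and 24 of 28 from 4000 bases. Of the 98 genes in which 1 intron took at least 50% of the span, 50 were above the filter, and of the other 59 genes 46 were. Of the 10 genes with the largest spans, 3 were listed at 0 in both libraries (TC002728, TC002913 and TC004902), and TC003852 and TC003802 were below 1 FPKM on average. TC013979 itself had 2.01 FPKM in normoxia and 1.71 in hypoxia, with overlapping intervals of 1.20 to 2.85 and 0.944 to 2.47. TC001667, with a span of 172681 bases and 20 exons, was the highest of these 10, at 39.2 FPKM in normoxia and 41.5 in hypoxia.

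The gene with the highest level, TC008708 (ChLG7, 17774785 to 17832134, minus strand), had 1081 FPKM in normoxia and 1027 in hypoxia, with overlapping intervals. By the sum TC030701 followed with 253 and 556 FPKM, and TC010669 with 261 and 280. The next was TC012080 (ChLG9, 9097370 to 9157077, minus strand) with 125 FPKM in normoxia and 136 in hypoxia, with overlapping intervals. By the sum these 4 genes lay well above the median of the long genes. Weighted by transcript length, as described below, TC030701 had 54.1 and 72.3 FPKM and TC010669 had 44.1 and 50.8. Both were then below TC012080, which had 175 and 194 FPKM. Assembled transcripts of TC010669 covered 43.3 and 27.3% of its span. The others among the 10 highest were TC003063 (88.2 and 102 FPKM), TC006423 (98.01 and 89.6), TC014149 (109 and 73.1), TC001219 (121 and 35.0), TC006417 (56.8 and 99.3) and TC003980 (77.9 and 72.2). All long genes together held 0.313% of the summed FPKM in normoxia and 0.345% in hypoxia.

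**Figure D1:**
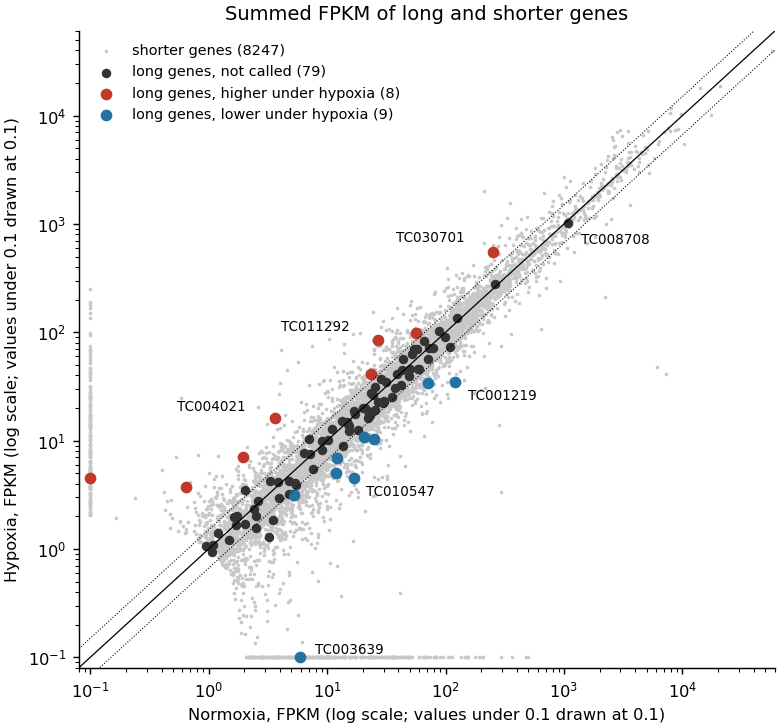
Summed FPKM in normoxia (x axis) and hypoxia (y axis), both on log scales, of the 96 long genes above 1 FPKM and of the 8247 shorter genes above 1 FPKM (grey). The full line marks equal values and the dotted lines 1.5-fold; 8 long genes are called higher and 9 lower, and the other 79 lie along the line among the shorter genes.

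The ratio of hypoxia to normoxia was taken on the log2 scale after adding 0.1 FPKM to both values, which understates the change of low genes. A gene was called higher or lower if its ratio was 1.5-fold or more in that direction and the confidence intervals of Cufflinks did not overlap. The intervals describe how well fragments were counted and placed in 1 library, and hold nothing of the spread between larvae. Of the 96 long genes above the filter, 8 were called higher under hypoxia, or 8.33%, against a background of 7.38% of all genes above the filter (718 of 9725), and 9 were called lower, or 9.38%, against 11.8% (1150 of 9725). Both shares were near the background. The median log2 ratio of the long genes was -0.07 with quartiles of -0.40 and 0.21, and that of all genes above the filter was -0.10 with quartiles of -0.43 and 0.21. Of the long genes 74 differed by less than 1.5-fold, and 5 differed by more with overlapping intervals. In whole larvae, fewer cells of a type and less RNA per cell cannot be told apart.

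Shorter genes of like level gave the same picture. The shorter genes were weighted so that their classes of mean FPKM, with limits at 1, 2, 5, 10, 20, 50, 100, 200 and 500 FPKM, had the shares found in the long genes. Their median log2 ratio was then -0.12, so that the long genes lay 0.04 above it. Of the weighted shorter genes 7.26% were called higher and 12.5% lower. The median absolute deviation of the log2 ratio was 0.30 in long genes and 0.33 in the weighted shorter genes. With weights for mean FPKM and coding length together the difference of the medians was 0.02, and for mean FPKM and number of exons 0.03. The long genes as a group therefore differed from other genes by a small part of the spread between genes, and no test of this difference was possible with 1 library in each condition.

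Across classes of span the median log2 ratio showed no steady course. It was -0.12 under 2000 bases (3841 genes), -0.11 from 2000, -0.09 from 5000, -0.05 from 10000 and -0.08 from 20000 bases, then -0.13 from 50000 (59 genes), 0.02 from 75000 (28 genes) and -0.16 from 100000 bases, a class of only 9 genes. The share called lower was 12.0%, 12.1%, 11.5%, 13.1% and 13.2% in the 5 shorter classes, and 4 of 59, 3 of 28 and 2 of 9 genes in the 3 long ones. Within classes of coding length the medians for long genes were -0.02 under 1000 bases (13 genes), -0.11 from 1000 (30 genes), -0.13 from 2000 (29 genes) and 0.09 from 4000 bases (24 genes), and for genes under 10000 bases of span they lay between -0.12 and -0.10. Within classes of mean FPKM the medians of long genes ran from -0.22 at 20 to 50 FPKM (21 genes) to 0.10 at 50 FPKM or more (21 genes). Those of genes spanning under 10000 bases went from -0.26 in the lowest class to -0.02 in the highest.

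**Figure D2:**
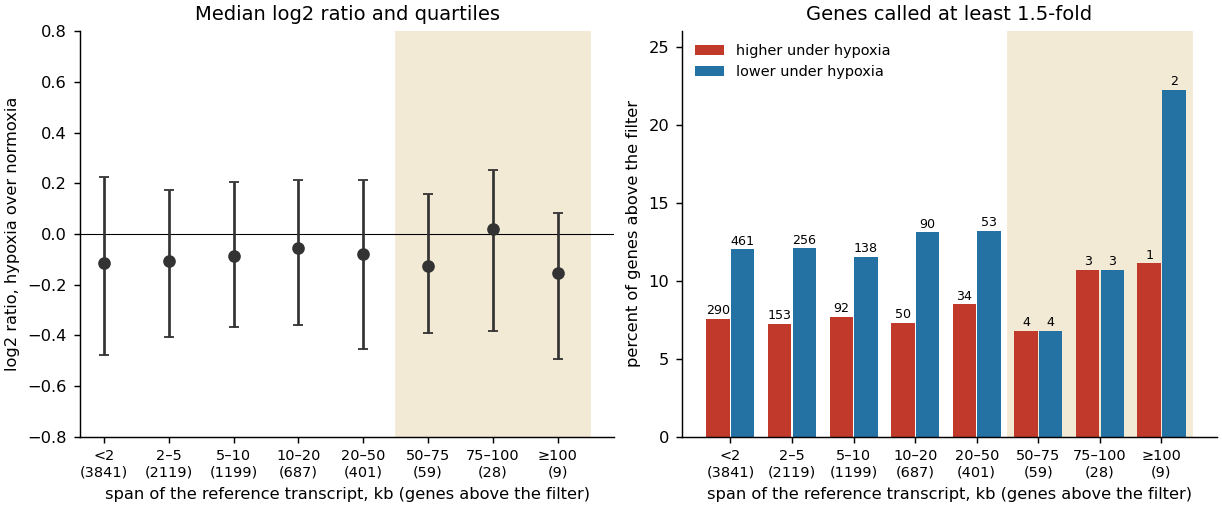
Left, median log2 ratio of hypoxia over normoxia with its quartiles (lines) for genes above 1 FPKM by span of the reference transcript; right, percent of them called at least 1.5-fold higher or lower, with the number of genes above each bar. Long genes are shaded: the medians stay between -0.16 and 0.02, and the class from 100000 bases holds 9 genes.

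Where long genes differed from shorter ones was in how their RNA was recorded. In 40 of the 96 long genes above the filter, or 41.7%, the reference transcript was listed at 0 in both libraries and the whole level came from assembled transcripts. This was so in 12.4% of the 8247 shorter genes, and in 12.7% of them when weighted to the levels of the long genes. With weights for level and coding length the share in shorter genes was 14.5%, and for level and number of exons 15.4%. In single libraries the reference transcript was listed at 0 in 56 of the 96 long genes in normoxia and in 57 in hypoxia (58.3 and 59.4%), against 20.4 and 20.9% of shorter genes. The share with a 0 in both libraries went up with span, from 7.21% under 2000 bases to 11.9%, 17.9%, 23.4% and 29.7% in the next 4 classes and to 42.4% from 50000, 35.7% from 75000 and 5 of 9 genes from 100000 bases. The mean number of assembled transcripts for a long gene was 1.59 in normoxia and 1.66 in hypoxia, and for a shorter gene 0.692 and 0.671.

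**Figure D3:**
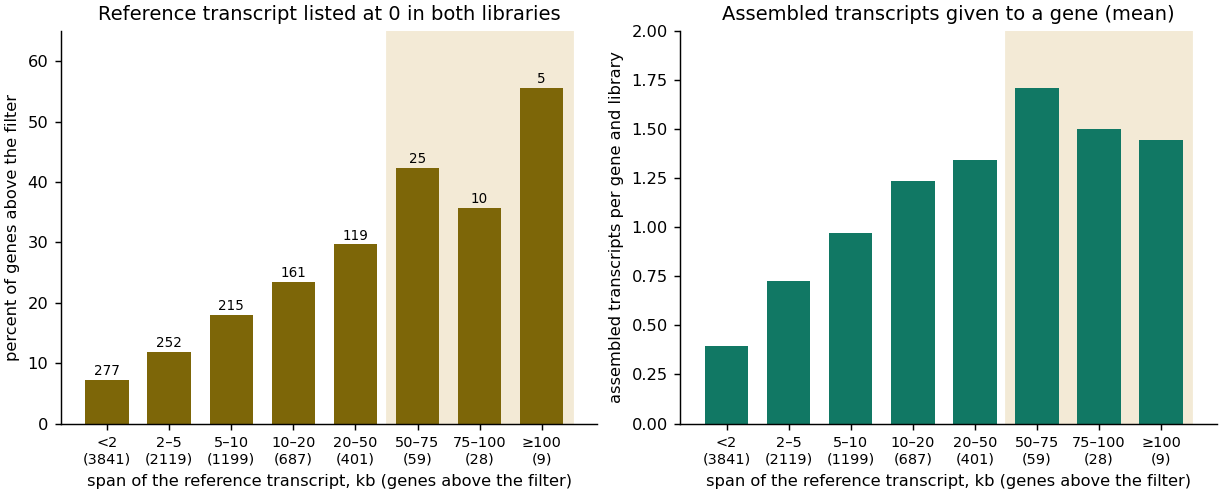
Left, percent of genes above 1 FPKM whose reference transcript is listed at 0 in both libraries, by span class, with the number of genes above each bar; right, mean number of assembled transcripts given to a gene in 1 library. Both are larger in long genes (shaded) than in every shorter class: the left bars go from 7.21% under 2000 bases to 42.4% in the class from 50000 bases.

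In most long genes the assembled transcripts covered nearly the whole span, but they did not always hold the longest intron. Of the long genes with an assembled transcript, 54 of 86 in normoxia and 53 of 85 in hypoxia had one that holds the longest reference intron exactly (62.8 and 62.4%), against 69.2 and 68.8% of shorter genes with introns. In 13 of the 96 genes no transcript above 0 in either library, reference or assembled, held that intron. Less than 50% of the span was covered by assembled transcripts in 13 of the 86 genes in normoxia and in 12 of the 85 in hypoxia, shares of 15.1 and 14.1% against 7.86 and 8.55% in shorter genes with introns. At least 90% was covered in 67 and 62 of the long genes. For 23 of the 96 genes an assembled transcript joined the gene to a neighbour, 24.0% against 10.9% of shorter genes. Shorter genes near the limit were alike in this, with 26.7% from 20000 bases, and the share in long genes was 28.8% from 50000 and 14.3% from 75000 bases.

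In 3 genes the reference transcript was listed at 0 and assembled transcripts covered under 50% of the span in both libraries. They were TC008708, TC006423 and TC006417, all among the 10 highest. The reference transcript of TC008708 has 4 exons, and intron 1 has 23188 bases. Its assembled transcripts, with 3 exons and 674 and 407 FPKM in normoxia and 637 and 391 FPKM in hypoxia, covered 45.8% of the span in both libraries and reached neither the first nor the second exon of the reference. TC006423 (ChLG8, 10586570 to 10680600, plus strand) has an intron 1 of 90307 bases, and its assembled transcripts covered 35.3% of the span, with 70.0 and 28.1 FPKM in normoxia and 89.6 FPKM in hypoxia. In TC006417 (ChLG8, 10281304 to 10369994, plus strand), with an intron 1 of 63547 bases, they covered 23.8 and 23.9% of the span. As assembled, the RNA of these 3 genes thus came from shorter stretches than the reference transcripts.

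**Figure D4:**
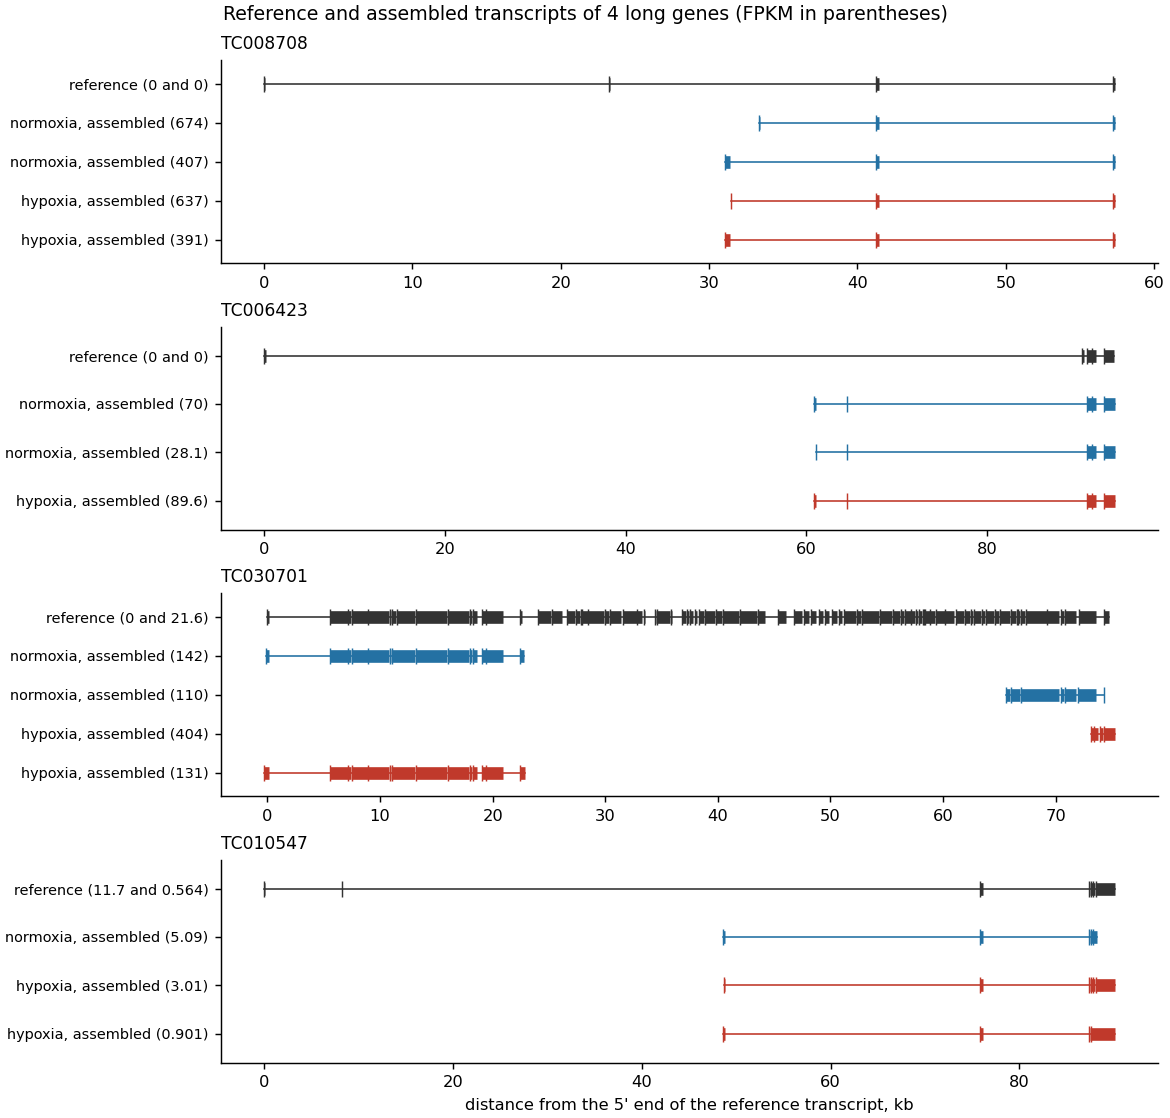
Exons (blocks) and introns (lines) of the reference transcript (black) and of the assembled transcripts in normoxia (blue) and hypoxia (red) for 4 long genes, against the distance from the 5' end of the reference transcript in kb, with FPKM in parentheses (normoxia and hypoxia for the reference). The assembled transcripts of TC008708 and TC006423 leave out the 5' part of the reference in both libraries, those of TC030701 are pieces from its ends, and those of TC010547 cover 43.9 and 46.1% of the span.

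Since FPKM of pieces of different length were added, a gene assembled differently in the libraries can differ in the sum without differing in the number of fragments. Each call was therefore set beside a value in which the FPKM of a transcript is multiplied by its length and the sum divided by the coding length of the gene. This measure was chosen after the data were seen. By it 9 of the 17 calls of long genes remained, 3 of the 8 higher and 6 of the 9 lower ones, and of the 1617 calls of shorter genes 1228 remained. As shares these are 52.9 and 75.9%. In 42 of the 96 long genes at least 1 assembled transcript had the same introns in both libraries, and the median log2 ratio of these transcripts was 0.01, against -0.06 over 1884 shorter genes.

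Dachs (TC010547; ChLG3, 18491518 to 18581654, plus strand) had the lowest ratio among the calls with both values above 0. In *Drosophila* Dachs is an atypical myosin that acts below the cadherin Fat in the control of tissue growth and planar polarity. The gene spans 90137 bases, of which intron 2 takes 67467, and its coding length is 3201 bases in 7 exons. It had 16.8 FPKM in normoxia and 4.48 in hypoxia, a log2 ratio of -1.88 (-2.26 to -1.50, 2 standard errors to either side as the intervals give them). The intervals of both libraries were far apart. Weighted by length they were 13.7 and 4.46 FPKM, and the reference transcript alone went from 11.7 to 0.564 FPKM. Dachs was lower under hypoxia by each of these 3 measures, which are not independent. Assembled transcripts covered the last exon to 90.1 kb in hypoxia but only to 88.2 kb in normoxia. The reference values thus also depend on which transcript was given the reads. The study reports this gene as lower by qRT-PCR too, on the same RNA.

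Of the other lower calls, 5 remained by length-weighted FPKM. TC001219 (ChLG2, 16043990 to 16103797, plus strand; 14 exons) had 121 FPKM in normoxia and 35.0 in hypoxia, a log2 ratio of -1.79, or -0.72 by length. In normoxia, 2 short assembled transcripts of 616 and 607 bases held 43.0 and 32.0 FPKM of its sum, and its reference transcript alone went the other way, from 9.72 to 20.1 FPKM. TC011392 (ChLG10, 7424089 to 7474958, plus strand; 15 exons) had 24.7 and 10.3 FPKM, a log2 ratio of -1.26, or -0.91 by length. The reductions of both genes were thus smaller by length but in the same direction. An assembled transcript joined each of them to a neighbour. TC015574 (ChLG6, 4219522 to 4309083, plus strand; 11 exons) had 12.0 and 6.89 FPKM, a log2 ratio of -0.79, or -0.91 by length. TC007180, with a span of 120824 bases, had 5.26 and 3.17 FPKM, a log2 ratio of -0.71, or -0.66 by length. TC003639 had 5.96 FPKM in normoxia and was listed at 0 in hypoxia, so no fold is given.

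The other 3 lower calls did not remain. TC002649 (ChLG3, 21917825 to 21975496, minus strand) had 71.3 and 34.3 FPKM, a log2 ratio of -1.05, but -0.38 by length, and its assembled transcript with the same introns in both libraries went from 14.6 to 34.3 FPKM. TC009570 (ChLG7, 3523098 to 3573799, plus strand) had 11.9 and 5.03 FPKM, a log2 ratio of -1.23, and -0.50 by length, while its shared assembled transcript went from 1.57 to 5.03 FPKM. In both genes the direction therefore differed between the gene sum and the transcript found in both libraries. An assembled transcript also joined TC009570 to a neighbour. TC002587 (ChLG3, 25615708 to 25742426, minus strand), with 20.7 and 10.8 FPKM, had a log2 ratio of -0.92 by the sum and 0.35 by length. An assembled transcript of 497 bases gave 14.3 FPKM of its sum in normoxia.

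Of the 8 higher calls, TC006417 was the one at 5 FPKM or more that remained by length. It had 56.8 FPKM in normoxia and 99.3 in hypoxia, a log2 ratio of 0.81 (0.66 to 0.96), or 0.86 by length. Its assembled transcript of 8 exons, found with the same introns in both libraries, went from 38.5 to 99.3 FPKM, and a variant of 7 exons with 18.2 FPKM was assembled in normoxia only. The gene was thus higher by each of these measures, within the 3' part of the reference that was assembled. TC006423 on the same chromosome, also assembled in its 3' part alone, had a log2 ratio of -0.13 (-0.26 to 0.00) and was not called. Below 5 FPKM the calls of TC004958 and TC005236 remained. TC004958 had 1.93 FPKM in normoxia, all of it by the reference transcript, and 6.996 in hypoxia, all of it by an assembled transcript over 6.03% of the span. TC005236 was listed at 0 in normoxia and had 4.47 FPKM in hypoxia, where 1 assembled transcript covered 1.02% of its span, and it shared an assembled transcript with a neighbour.

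The gene with the largest coding length among the calls, TC030701, had 253 FPKM in normoxia and 556 in hypoxia, a log2 ratio of 1.14 (1.07 to 1.21). Its interval was narrow, but the sum in hypoxia held 404 FPKM of an assembled transcript of 1911 bases at the 3' end, where normoxia had one of 7390 bases with 110 FPKM. The 14-exon transcript at the 5' end, with the same introns in both libraries, had 142 and 131 FPKM. By length the values were 54.1 and 72.3 FPKM, a log2 ratio of 0.42. These 3' pieces are of unlike length: FPKM times length in kb was 815 in normoxia and 771 in hypoxia. The reference transcript went from a listed 0 to 21.6 FPKM, which is 1166 by the same product. The 3' pieces also cover mostly different stretches, 65.6 to 74.3 kb in normoxia and 73.1 to 75.3 kb in hypoxia. Their products therefore do not compare the same sequence. So the 5' transcript found in both libraries was slightly lower in hypoxia, and the higher value by length rested on the reference transcript. The 1.5-fold call was not reached by length.

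TC011292 (ChLG10, 3836244 to 3904575, plus strand; 11 exons) had 26.9 and 84.2 FPKM, a log2 ratio of 1.64, and 0.40 by length. Its 9-exon transcript with the same introns in both libraries was lower in hypoxia, 13.3 against 26.9 FPKM, and a 3-exon transcript of 514 bases with 70.9 FPKM was assembled in hypoxia only. TC004021 (ChLG3, 38182988 to 38312931, plus strand) had 3.61 and 16.2 FPKM, a log2 ratio of 2.14, and 0.60 by length. The value by length is just past 1.5-fold, but the call did not remain, so the fold alone did not keep a call. It was assembled as 1 transcript of 9 exons in normoxia and as 2 transcripts of 4 exons in hypoxia, and a transcript joined it to a neighbour. No assembled transcript of TC004021 had the same introns in both libraries, so its higher call compares different pieces. TC003908 (ChLG3, 31949876 to 32002849, plus strand) had 23.4 and 41.1 FPKM, a log2 ratio of 0.81, and -0.12 by length, while its transcript with the same introns in both libraries went from 3.15 to 6.44 FPKM. TC011226 had 0.638 and 3.70 FPKM, a log2 ratio of 2.37, and 0.48 by length.

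**Figure D5:**
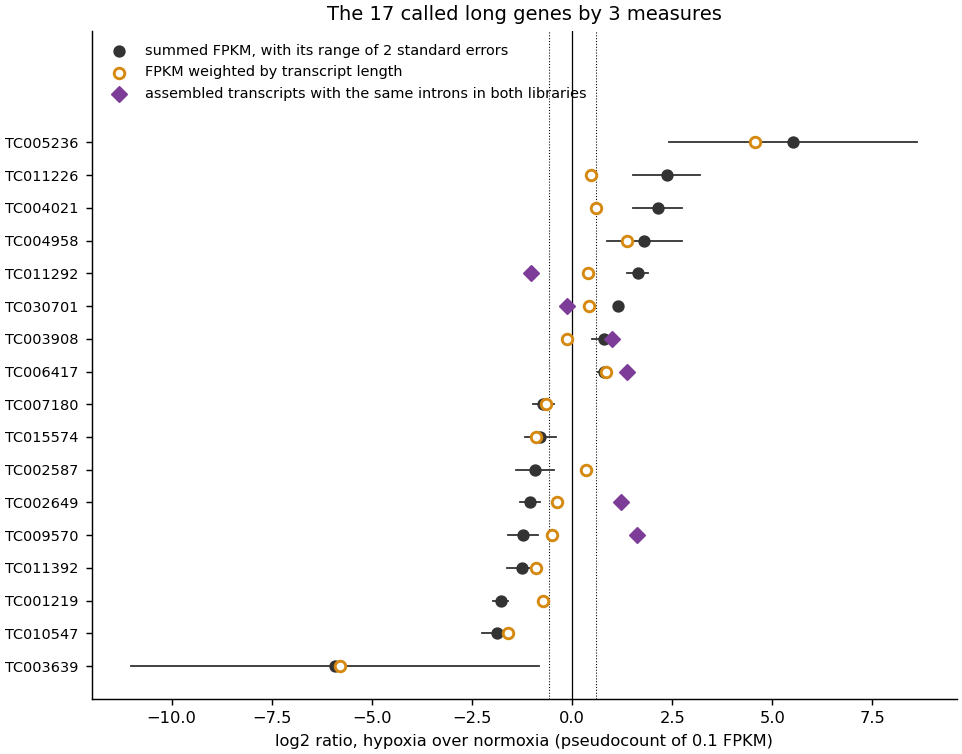
Log2 ratio of hypoxia over normoxia for the 17 called long genes by summed FPKM (black, with 2 standard errors to either side), by FPKM weighted by transcript length (open circles) and by the assembled transcripts with the same introns in both libraries (diamonds, 6 genes). Dotted lines mark 1.5-fold; the ratios of TC005236 and TC003639 are set by the pseudocount because 1 library is listed at 0. TC006417 keeps its side by every measure, its diamond included. TC010547 has no diamond and keeps its side by length, as do most other genes without a diamond. TC002649, TC009570, TC011292 and TC030701 have diamonds on the other side of 0 from the sum.

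Smaller differences with separate intervals were found in other long genes at 5 FPKM or more. Together with those past 1.5-fold, 14 of the 68 long genes at this level (20.6%) were above normoxia and 23 (33.8%) below it in hypoxia. Among all 7502 genes at this level 15.8% were above and 21.5% below by the same rule, and the intervals of long genes were somewhat narrower than those of shorter ones, with median half-widths of 11.3 and 10.8% of the FPKM against 13.4 and 13.2%. Half-widths were added in squares over the transcripts of a gene, as if these were independent, and long genes had more assembled transcripts. The part of the narrower intervals, or of this way of adding them, in these shares was not tested. Among those above were TC002408 (43.8 and 56.8 FPKM), TC011288 (28.6 and 37.1), TC015216 (54.3 and 69.9), TC006305 (65.7 and 82.4) and TC002962 (51.7 and 62.9). By length TC015216 had a log2 ratio of -0.12, against 0.36 by the sum, and TC002408 one of 0.07 against 0.37. Among those below were TC014149 (109 and 73.1 FPKM), TC010113 (18.1 and 12.5) and TC012322 (7.65 and 5.47). TC012322 was measured by its reference transcript alone in both libraries and had a log2 ratio of -0.48 (-0.77 to -0.19). For TC014149 the log2 ratio was -0.57 by the sum and 0.00 by length. For TC010113 it was -0.53 by the sum and -0.77 by length, where the gene was called lower.

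The limit of 50000 bases cut through a continuous range. Just inside it were TC009570 (50702 bases), TC007637 (50839 bases; 7.20 and 7.49 FPKM) and TC011392 (50870 bases). Just outside were TC008462 (49887 bases; listed at 0 in normoxia and 55.3 FPKM in hypoxia, from assembled transcripts that join it to a neighbour), TC003879 (49863 bases; 138 and 157 FPKM) and TC003015 (49447 bases; listed at 0 in both). The assembled transcripts of TC003879 covered 0.754 and 0.776% of its span.

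Introns of the long genes held other genes. In 46 of the 157 long genes an intron contained at least 1 whole gene with a TC identifier, 72 genes in all, and all 72 lay on the other strand. Of 216 other genes inside introns of shorter genes 4 were on the strand of their host. Of the 72 genes 10 had a mean of at least 1 FPKM, or 13.9%, and 54 were listed at 0 in both libraries. Of the 216 genes inside shorter genes 37.0% were above 1 FPKM and 52.8% listed at 0, and of the 13435 shorter genes not inside a long gene 61.3% were above 1 FPKM. So genes held by long genes were seldom detected. The highest was TC010901 in TC010943, with 99.8 FPKM in normoxia and 116 in hypoxia, where the host was listed at 0 in both libraries. TC012241 in TC012225 had 72.7 and 99.97 FPKM, and its host 15.3 and 12.2. TC002682 in TC003756 was called lower, with 47.4 and 24.2 FPKM, as was TC004478 in TC004902, with 9.71 and 3.81 FPKM and a host listed at 0. None of the 10 was called higher. Of all genes above the filter 7.38% were called higher and 11.8% lower, and 10 genes are too few to show a direction beside these shares.

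Of the 157 long genes 16 had another long gene as neighbour. Long genes made up 2.85% of the genes on ChLG3 and 0.857% on the other chromosomes, and the number of pairs under even placement was not worked out. Setting aside genes inside their introns, 8 pairs of neighbours were both long, 4 of them on ChLG3. In the pairs TC004902 and TC004480, TC002512 and TC003894, TC005706 and TC006417, and TC005213 and TC005223 the genes overlapped on opposite strands. In 1 pair both genes were above 1 FPKM. In that pair TC002119 had a mean of 4.67 FPKM with a log2 ratio of -0.49 and TC002118 a mean of 1.81 FPKM with a log2 ratio of 0.27, and neither was called.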

How the data were processed

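The authors mapped the reads of 1 normoxia and 1 hypoxia library to the BeetleBase genome and deposited for each the output of Cufflinks run with a reference annotation as guide, with FPKM, confidence bounds and coverage of every transcript. Aligner, versions and build were not given in the sources used here. Read counts per gene are not in the values used, so no count model was run and the differential expression of the study, made on read counts, was not repeated. The libraries hold 17071 reference transcripts each and 7674 (normoxia) and 7423 (hypoxia) assembled ones.

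Of the assembled transcripts 6895 and 6654 were given to the reference gene with most shared exonic bases on their strand. Those without a strand (502 and 500) were given to none. The kit is not stated to mark strand, so reads of genes that overlap on opposite strands cannot be told apart. Over the transcripts of a gene, half-widths of intervals were added in squares, and the root was taken as 2 standard errors. At 5 FPKM or more their median was 11.3 and 10.8% of the FPKM in long genes and 13.4 and 13.2% in shorter ones. Coverage per FPKM was 1.13 times as large in hypoxia as in normoxia.

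Named were the 10 long genes with the largest span, the 10 with the highest mean FPKM, the 10 with the largest difference in each direction among those with a mean of at least 5 FPKM and separate intervals, genes named in the paper, genes whose call reversed by the reference transcript alone, and 3 genes on each side of 50000 bases. Further genes, among them the remaining calls, the genes inside introns and neighbours, were named after their values were seen. The members, lists and alternatives were chosen with earlier results of these data known. Assignment and calls were tested on simulated data. Python 3.11.15 with numpy 2.4.6, pandas 2.3.3, scipy 1.17.1 and matplotlib was used.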

Additional observations from a re-analysis of the deposited data

How the results depend on the processing

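Under the alternatives run, the median log2 ratio of the long genes ran from -0.16 to 0.03. The order-statistic interval of the median was -0.24 to 0.06. It treats genes as independent draws and holds no spread between libraries, so it does not measure the effect of the condition. The difference of the median from shorter genes of like level ran from -0.02 to 0.12. The number called at least 1.5-fold stayed within 1.5 times of 8 higher and 9 lower except as follows. A mean of at least 5 FPKM left 5 higher. A limit of 40000 bases gave 15 higher and 16 lower, of 75000 bases 4 and 5, and of 100000 bases 1 and 2, since more or fewer genes were included. Length-weighted FPKM gave 4 higher and 8 lower of 94 genes, which moves the share of higher calls. Among the 64 genes whose longest intron was held in both libraries 2 were higher, and among the 45 where an assembled transcript held it 1 was higher and 5 lower. These 3 alternatives, and giving transcripts without a strand to genes, were chosen after the data were seen. The shares of all genes called under them are not given here, so these counts do not set long genes apart from others. By the reference transcript alone 12 of 38 genes were higher and 12 lower, much larger shares than 8 and 9 of 96 by the sum. The share of all genes called by the reference transcript alone is not given here. The share of long genes that passed 1 FPKM was then 24.2%, and their median 6.98 FPKM. At least 5 FPKM was reached by 43.3%, with a median of 25.7 FPKM, and genes from 100000 bases had a median of 4.67 FPKM. By the reference transcript alone the log2 ratios of 4 called genes reversed, to 1.04 for TC001219, -5.65 for TC003908, -4.34 for TC004958 and -1.72 for TC011226. By length-weighted FPKM those of TC002587 (0.35) and TC003908 (-0.12) reversed. Centring on the median of all genes shifts every log2 ratio up by 0.10 and turns the median of the long genes to 0.03. No paired analysis was possible because there is 1 library in each condition. Read depth per gene is unknown, and the intervals cover no spread between larvae.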

Other observations

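Introns of long genes also held assembled transcripts that share no exonic base on their strand with a reference gene. Those without a strand were matched to no gene, so overlap with an exon on either strand is not excluded. In the 11.3 Mb of these introns 11 such transcripts were assembled in normoxia and 14 in hypoxia, or 0.975 and 1.24 per Mb, against 1.77 and 1.91 in the 43.5 Mb of introns of shorter genes. Of them 7 and 11 had no strand, and 4 and 3 were spliced. All 11 of normoxia overlapped one of hypoxia. The highest in hypoxia lay in an intron of TC010356 (ChLG3, 28013410 to 28020677, plus strand), with 5 exons and 43.7 FPKM. In normoxia 3 transcripts with 31.9, 6.45 and 6.04 FPKM were assembled at the same place.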
